A study of Mus musculus with 12 samples.

Results

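KPC pancreatic tumour cells and MB49 bladder tumour cells differ in which genes they have switched on before any treatment. A set of 236 genes was expressed in unirradiated KPC cells and was at or near 0 in unirradiated MB49 cells, and the question followed here is what these genes are and what became of them after a radiation dose of 8 Gy in each line. A gene belonged to the set if its CPM, counts scaled to a library total of 1000000, averaged 10 or more over the 3 KPC control libraries and under 0.5 over the 3 MB49 control libraries. The 236 genes were drawn from 57180 rows of the deposited table and from 8494 genes at 10 CPM or more in the KPC controls. Of the 236, 230 had an ordinary gene symbol and 6 had a clone or gene-model name. The genes were thus chosen by their measured levels in the KPC and MB49 control libraries, so the difference between these groups is described here without a test.

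The data were bulk RNA sequencing of mouse tumour cell lines in 4 groups of 3 libraries: KPC cells given 8 Gy, KPC controls, MB49 cells given 8 Gy and MB49 controls. KPC is a pancreatic ductal adenocarcinoma line, and MB49 is a bladder carcinoma line. The labels give genotype WT for every library, name no engineered allele and give no animal age. Irradiated cells were grown for 48 h after the dose, while the labels are silent on how long the controls were grown, so dose and time in culture cannot be told apart. The series text also speaks of senescent and non-senescent cells, but the label of a library says only Control or 8 Gy. Whether the replicates of a group were separate cultures is not stated, so each p-value measures the spread between these libraries, which may be technical. In bulk RNA fewer cells with a gene on and less RNA per cell cannot be told apart.

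Cells of different tissue origin keep different sets of genes on through transcription factors that were set during development. In the pancreas and gut, factors of the Foxa, Gata, Hhex, Onecut and Cdx families mark endoderm, the inner germ layer, whereas the bladder lining depends on Pparg, Foxa1 and Gata3 among others. Ionising radiation damages DNA, arrests the cell cycle and can start an interferon response, in which transcription factors bind short DNA elements in the promoters of antiviral genes.

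Most of the genes kept their pattern after irradiation. Of the 236, 170 (72.0%) still had at least 10 CPM in irradiated KPC cells, 65 (27.5%) lay between 0.5 and 10 CPM and 1, Gm15500, was under 0.5 CPM. The kept share was larger, at 86.7%, among the other genes at 10 CPM or more in KPC controls, and it depended on the starting level, as given below. In irradiated MB49 cells, 196 of the 236 (83.1%) were still under 0.5 CPM, 38 (16.1%) lay between 0.5 and 10 CPM and 2, Igtp and mt-Co2, were at 10 CPM or more. Both held for 135 genes (57.2%), which stayed on in KPC and off in MB49. At 81 genes, no read was counted in any irradiated MB49 library. In contrast, 26 genes reached at least 1 CPM in irradiated MB49 cells, and 6 of these were interferon-inducible genes that rose in both lines, led by Igtp.

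Promoter sequences are shown first for 3 interferon-inducible genes of the set and then for a pair of genes that went apart in irradiated MB49 cells. Each is the stretch of 300 bases from 250 before to 50 after the transcription start in RefSeq's table for build GRCm38.p6, given 5′ to 3′ on the gene's own strand. The first is Isg15 (chr4:156200769-156201068, minus strand), which encodes a ubiquitin-like protein attached to other proteins in interferon-treated cells. The second is Igtp (chr11:58199306-58199605, plus strand), an interferon-inducible GTPase that acts on the vacuoles of intracellular parasites. The third is Oas1g (chr5:120887564-120887863, minus strand), of the family of synthetases that sense double-stranded RNA. Capitals mark matches to the letters GAAA, any 2 bases and GAAA again, a core of the interferon-stimulated response element (ISRE).
Isg15: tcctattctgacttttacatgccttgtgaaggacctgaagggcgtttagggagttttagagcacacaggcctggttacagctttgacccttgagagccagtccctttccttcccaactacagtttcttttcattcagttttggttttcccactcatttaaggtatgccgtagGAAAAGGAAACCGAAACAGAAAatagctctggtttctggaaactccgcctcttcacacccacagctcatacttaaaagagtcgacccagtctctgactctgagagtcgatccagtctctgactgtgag
Igtp: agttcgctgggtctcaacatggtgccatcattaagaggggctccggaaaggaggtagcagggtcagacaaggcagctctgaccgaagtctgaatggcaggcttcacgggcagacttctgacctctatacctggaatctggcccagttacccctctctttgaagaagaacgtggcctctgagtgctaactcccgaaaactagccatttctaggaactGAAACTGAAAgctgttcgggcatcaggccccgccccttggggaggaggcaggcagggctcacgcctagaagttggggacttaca
Oas1g: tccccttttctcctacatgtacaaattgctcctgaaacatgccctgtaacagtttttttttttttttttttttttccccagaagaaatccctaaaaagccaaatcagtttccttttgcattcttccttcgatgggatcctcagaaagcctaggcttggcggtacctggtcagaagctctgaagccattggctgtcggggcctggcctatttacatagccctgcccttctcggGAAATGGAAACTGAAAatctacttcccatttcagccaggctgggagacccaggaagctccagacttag
The Isg15 window held 3 overlapping matches, the Igtp window 1 and the Oas1g window 2 overlapping ones, with both strands searched. The Igtp window also held TTCNNNGAA, the letters of the gamma-activated site (GAS), at bases 206 to 214, just before its ISRE match at bases 217 to 226 of the window. Of 32851 promoter windows in the table, 3.44% held the ISRE letters and 8.3% the GAS letters. The windows shown were picked after values had been seen, so no excess over these shares is read from them. A match is a run of letters and does not show that a factor was bound in these cells.

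The next pair is Krt7 (chr15:101412153-101412452, plus strand), the gene of a keratin of simple and ductal epithelium, which rose in irradiated MB49 cells, and Arl4c (chr1:88702142-88702441, minus strand), the gene of a small GTPase at the cell membrane, at which no read was counted in them. Capitals mark CG pairs, the sites at which mammalian DNA can be methylated. Methylation was not measured here.
Krt7: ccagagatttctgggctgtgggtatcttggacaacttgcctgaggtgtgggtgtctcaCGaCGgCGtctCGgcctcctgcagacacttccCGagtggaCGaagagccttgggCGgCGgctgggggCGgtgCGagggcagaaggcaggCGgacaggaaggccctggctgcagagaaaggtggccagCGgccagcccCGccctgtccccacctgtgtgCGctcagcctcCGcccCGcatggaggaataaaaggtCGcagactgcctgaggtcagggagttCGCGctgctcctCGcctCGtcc
Arl4c: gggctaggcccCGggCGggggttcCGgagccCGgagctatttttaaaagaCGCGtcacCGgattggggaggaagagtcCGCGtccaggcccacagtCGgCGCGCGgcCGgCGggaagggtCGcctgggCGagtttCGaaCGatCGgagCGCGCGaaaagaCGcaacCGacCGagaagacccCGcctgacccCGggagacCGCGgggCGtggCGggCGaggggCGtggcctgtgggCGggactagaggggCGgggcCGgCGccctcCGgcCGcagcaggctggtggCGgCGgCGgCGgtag
The Krt7 window held 21 CG pairs and the Arl4c window 44, against a median of 7 over all windows of the table.

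Per-gene values below are CPM scaled between libraries by TMM factors (scaled CPM), the scale of the log2 fold changes, and tests are by edgeR's quasi-likelihood method, with p-values adjusted by Benjamini-Hochberg over all 14362 genes tested. A gene was called at an adjusted p under 0.05. Of the 236 genes, 235 passed the filter on low counts, and Gm15500 did not. Library totals ran between 19006015 and 26337950 estimated counts. Scaling by totals alone lowered log2 values by a median of 0.38 in KPC 8 Gy against control and of 0.29 in MB49 8 Gy against control, and a change smaller than that depends on the scaling. The markers of origin did not all part the lines. Among genes of simple epithelium, Krt19 averaged 416 scaled CPM in KPC 8 Gy, 80.6 in KPC control, 3.25 in MB49 8 Gy and 3.85 in MB49 control libraries. Krt8 averaged 1820 scaled CPM in KPC 8 Gy, 363 in KPC control, 1510 in MB49 8 Gy and 1200 in MB49 control libraries. The list of 50 pancreatic duct and simple epithelial genes summed to 4430 to 4610 CPM in KPC 8 Gy, 2740 to 2960 in KPC control, 5810 to 6000 in MB49 8 Gy and 4940 to 5650 in MB49 control libraries. Pdx1, a pancreatic factor gene, averaged 21.8 scaled CPM in KPC 8 Gy, 76.7 in KPC control, 2.91 in MB49 8 Gy and 17.3 in MB49 control libraries. Epcam, another epithelial marker, had only 15 counts over the KPC 8 Gy and 14 over the KPC control libraries. In MB49 the uroplakins, the defining proteins of bladder surface cells, were at or near 0: Upk1a had 9 counts over the irradiated and 19 over the control libraries, and Upk2 had none in either. The whole list of 20 urothelial genes summed to 183 to 188 CPM in MB49 8 Gy and 81.8 to 103 CPM in MB49 control libraries, with 1 and 3 of its genes at 10 CPM or more, and of its 12 tested genes 7 were called higher and 2 lower after 8 Gy (edgeR). Ptprc, the common leukocyte gene, was at 0 in all 6 KPC libraries. The list of 27 immune cell markers summed to 86.0 to 88.3 CPM in KPC 8 Gy and 40.0 to 43.6 CPM in KPC control libraries, with 18 of its genes at 0 in each group. Of its 5 genes tested, 3 were called higher and 0 lower in KPC 8 Gy against control (edgeR).

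The third MB49 control library stands apart at these genes and has to be named before the results. Leaving out mt-Co2 and Gm15500, the summed level of the other 234 genes was 64.2 CPM in MB49 control replicate 3, against 18.5 in replicate 1 and 16.5 in replicate 2. In replicate 3, 196 of the 234 genes had at least 1 count, against 111 and 95 in replicates 1 and 2, and 33 genes reached 0.5 CPM there, against 4 and 1. It was the highest of the 3 MB49 controls at 166 of the 207 genes with any count in them. The same library had 86 counts of Epcam, 74 of Xist and 62 of Cdh1, where replicates 1 and 2 had 0 of Epcam, 0 of Xist and 2 of Cdh1 each, and KPC controls had 3 to 7 counts of Epcam and 0 of Xist. Cdh1, by contrast, had 801 to 1119 counts in KPC controls. Krt19 had 153 counts in this library, 83 and 52 in MB49 control replicates 1 and 2, and 1675 to 2261 in KPC controls. The list of gastric-type mucous and secretory genes summed to 54.1 CPM in it, against 4.42 and 6.18 in the other MB49 controls and 2.16 to 2.35 in the KPC controls. The part of this library in the choice of genes was measured: the rule without it gives 252 genes. The total counts of rises and falls, and some named genes, are given with and without it. The split of the MB49 rises by their call in KPC cells is given only with it.

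**Figure D1:**
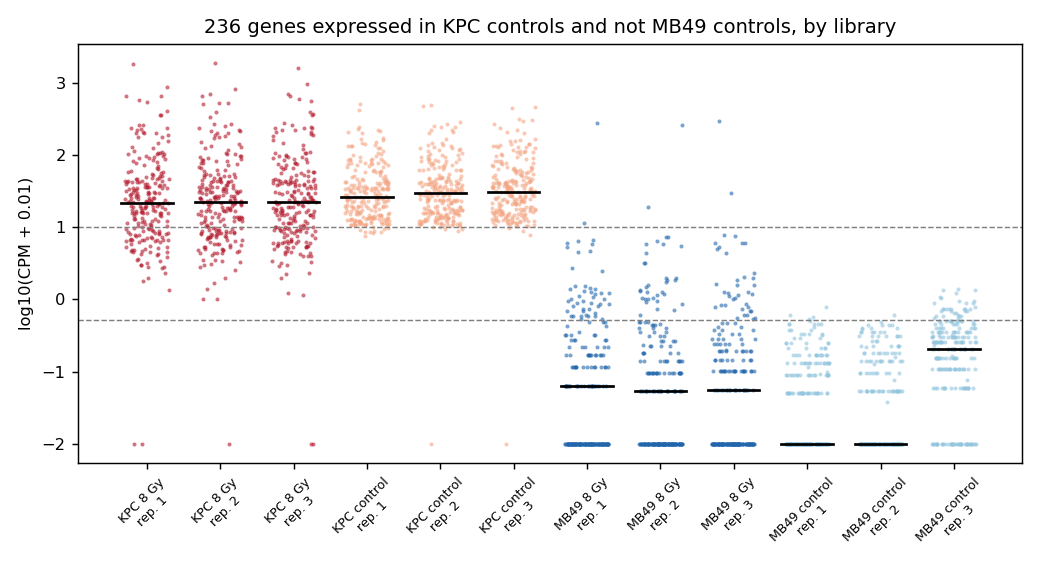
Level of each of the 236 genes in every library, as log10(CPM + 0.01), with a point per gene, a black bar at the median and dashed lines at the 10 CPM and 0.5 CPM of the rule. Nearly all points of the KPC 8 Gy and KPC control libraries lie far above those of the MB49 8 Gy and MB49 control libraries, Igtp and mt-Co2 lie above 10 CPM in MB49 8 Gy, and MB49 control replicate 3 has fewer genes at 0 than the other MB49 controls.

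Near the limits of the rule, membership turned on small differences. The genes nearest above 10 CPM in KPC controls were Rasl11a at 10.06, Il17rd at 10.08 and Prss8 at 10.09 CPM, and those nearest below were Foxc1 at 9.839, Onecut3 at 9.812 and Faxc at 9.794 CPM. At the other limit, Zfp469 at 0.498, Brsk1 at 0.492 and Rasgef1b at 0.483 CPM in MB49 controls were just inside. Dyrk1b at 0.501, Lrrc8e at 0.508 and Ptprf at 0.533 CPM were just outside. In MB49 controls, 29 of the 236 genes had 0 counts in all 3 libraries, and 76 had at most 3 counts in all.

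A pair of genes entered the set with values that differ between libraries of 1 group by far more than counting error. The deposited table lists mt-Co2, a mitochondrial subunit of cytochrome c oxidase, at 0 counts in KPC 8 Gy replicates 1 and 3 and at 1105 in replicate 2, against 772, 586 and 666 in KPC control replicates 1, 2 and 3. It lists the gene at 214, 446 and 648 counts in MB49 8 Gy libraries and at 0 in all 3 MB49 controls. Gm15500, a predicted gene, is listed at 1530 counts in KPC control replicate 1 and at 0 in every other library. Replicate 1 of the KPC controls also had 5.11% of its counts at the 18S ribosomal RNA gene Rn18s, against 0.202 to 0.547% in the other KPC libraries. Both genes stay in the counts over the 236 members and are not described further as biology. Without them, 48 members instead of 49 were called higher in MB49 8 Gy against control. The 71 rises and 89 falls called in KPC cells were unchanged.

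In kind, the set held genes of the cell surface, of secreted proteins and of transcription factors. In the annotation deposited with the table, 25 of 233 annotated members (10.7%) carried the term extracellular space, against 3.59% of the other genes at 10 CPM or more in KPC controls. The term plasma membrane was carried by 52 members (22.3%) and by 14.0% of the others. Sequence-specific transcription factor activity (4.29% of members, 1.12% of the others) was also more frequent. Mitochondrion (6.01% and 12.6%), cytosol (15.5% and 26.5%) and RNA binding (1.29% and 4.9%) were less frequent in the members than in the others. Nucleus (30.0% and 33.5%) was also less frequent. Cell adhesion was carried by only 2 members (0.858%, against 1.17% of the others), too few to set the shares apart. The deposited terms are incomplete: the transcription factor term covers 10 members, while the role groups below place 7 and 23 genes under transcription factors. Multicellular organism development (2.15% and 1.02%) was more frequent. These shares describe the chosen genes and were not tested. Of 226 members that could be placed in RefSeq's order of protein-coding genes, 18 stood next to another member, in 9 pairs. Among these pairs were Fads2 and Fads1, fatty acid desaturases, Efna3 and Efna4, ephrin ligands, and F2rl1 and F2r, receptors cleaved by proteases.

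Per kilobase of gene length, the set was led in KPC controls by Phlda3, a repressor of Akt and a known target of p53, at 451.6 scaled CPM per kb in KPC 8 Gy and 297.8 in KPC control libraries. Plac8, a small cysteine-rich protein first found in placenta, followed at 1058 scaled CPM per kb in KPC 8 Gy and 240.9 in KPC control libraries. The next in order of KPC control level were Cd24a, a surface glycoprotein, Ctsz, a lysosomal cathepsin, Prl2c2, a placental hormone of the prolactin family also called proliferin, and Igfbp7, a secreted binding protein of growth factors. These 4 lay between 110.0 and 157.6 scaled CPM per kb in KPC controls. Igf2, a fetal growth factor, Basp1, Gde1, Marcksl1, Slc16a11 and Fads2 completed the 12 highest, at 65.21 to 86.5 scaled CPM per kb in KPC controls.

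Irradiated KPC and MB49 cells were compared next, in 6 libraries that the rule did not use. They are the same 2 lines, and the shared estimate of spread includes the control libraries that the rule used. Most of the genes passed the filter on low counts through the KPC libraries. A higher level in KPC was thus largely fixed by the choice, and the counts describe the genes without being independent support. The shares over all tested genes come from genes not chosen in this way. All but 2 of the 236 genes were higher in irradiated KPC than in irradiated MB49 cells: 234 were called higher and 0 lower, where 31.0% of all tested genes were called higher and 33.4% lower. The exceptions were mt-Co2, whose log2 fold change of -0.40 ± 1.60 (SE) was not called (adjusted p = 0.842, edgeR), and Gm15500, which was not tested. The levels of the 3 and 3 libraries did not overlap at the 234 genes, and they did not overlap at 70.7% of all tested genes. With group sums under 3 counts raised to 3 (0.0503 scaled CPM), the mean level was 10-fold or more higher in irradiated KPC cells at 224 of 234 genes and 100-fold or more higher at 172. The floor of 3 counts stood in for the MB49 level at 120 of the 234 genes, so their ratios, and the median of 214 over all 234, depend on the floor. The smallest ratio was 3.26, at Rab3a, a GTPase of secretory vesicles.

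The response of KPC cells themselves split the set. In KPC 8 Gy against KPC control libraries, 71 members rose, 89 fell and 76 were not called. These shares (30.1% higher, 37.7% lower) lie near those of all tested genes, of which 31.3% were called higher and 32.0% lower, and near those of the other genes at 10 CPM or more in KPC controls (32.6% and 36.5%). The median log2 fold change was -0.07 over the members and -0.01 over all tested genes. At least 2-fold changes were called in 47 members that rose and 53 that fell, and the 3 and 3 libraries did not overlap at 191 members, against 69.7% of all tested genes. The KPC controls took part in the choice of the genes and in this comparison. Without MB49 control replicate 3, which adds to the shared estimate of spread, 83 rose and 98 fell.

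**Figure D2:**
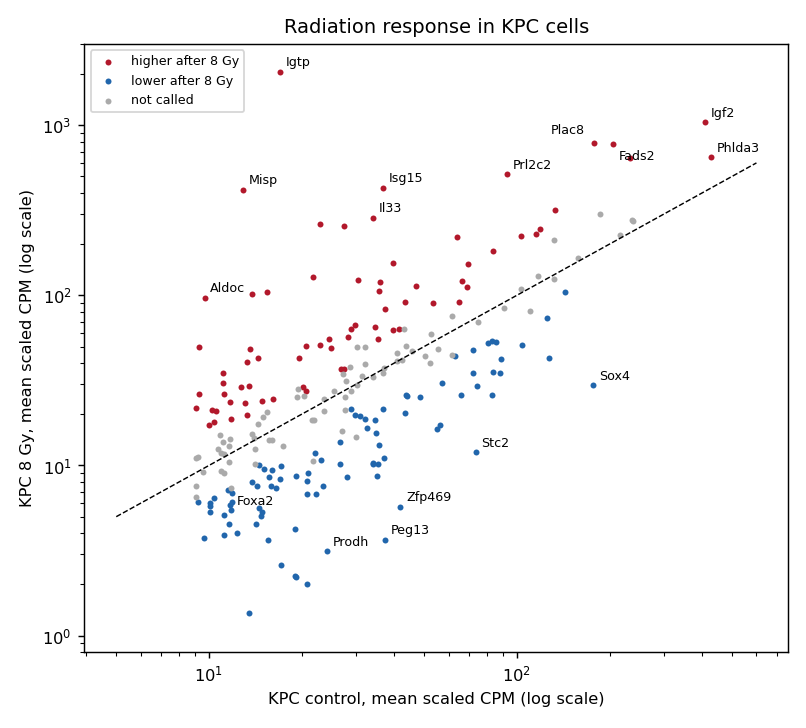
Mean scaled CPM of each gene in KPC 8 Gy libraries (vertical, log scale) against KPC control libraries (horizontal, log scale), coloured by edgeR call, with the dashed line at equal levels. Gm15500, at 0 in KPC 8 Gy, is not drawn. Igtp and Misp lie farthest above the line and Peg13 and Prodh among the farthest below, and the 71 genes that rose and 89 that fell spread on both sides.

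The summed level of the 234 genes was 15180 to 15250 CPM in KPC 8 Gy libraries, against 10690 to 12280 in KPC control libraries. This sum is weighted to the genes with the most counts and does not show a rise of the set, as more members fell (89) than rose (71). The kept share depended on the starting level. Of members at 10 to under 20 CPM in KPC controls, 48.8% stayed at 10 CPM or more after 8 Gy, against 51.9% of other genes in the same band. At 20 to under 50 CPM the shares were 75.3% of members and 88.7% of others, and at 50 CPM or more all 59 members and 99.0% of the others stayed. Of all other genes at 10 CPM or more in KPC controls, 86.7% stayed there.

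For the account by role, 137 of the members were placed in 11 groups by their known function, after their values had been seen, so that the counts describe the groups and test nothing. Each count in KPC cells is to be set beside the shares over all 236 members, 30.1% called higher and 37.7% lower. Without MB49 control replicate 3, no count of rises or falls in KPC cells moved by more than 2 genes in a group: the endoderm group then had 2 rises and 2 falls, the epithelial group 7 and 4, and the metabolic group 9 and 4. In MB49 cells the count of rises moved most in the epithelial group, from 5 with that library to 8 without it.

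Among the endoderm and gut transcription factor genes, 4 of 7 kept 10 CPM or more in irradiated KPC cells. Of the 7, 1 rose (Ehf), 1 fell (Foxa2) and 5 were not called in KPC 8 Gy against control, and 6 stayed under 0.5 CPM in irradiated MB49 cells. Foxa2, which opens chromatin for other factors in liver, pancreas and gut, had 5.95, 4.94 and 5.43 scaled CPM in KPC 8 Gy libraries, against 10.4, 13.6 and 11.4 in KPC control libraries. The groups did not overlap, and the log2 fold change was -1.12 ± 0.19 (SE, adjusted p = 0.000179, edgeR). No Foxa2 read was counted in any of the 6 MB49 libraries. Gata4, which acts in endoderm and heart, likewise had 0 counts in MB49, and its levels of 9.87, 7.98 and 9.89 scaled CPM in KPC 8 Gy against 11.1, 10.6 and 11.3 in KPC control libraries did not pass the test (log2 fold change -0.25 ± 0.17, adjusted p = 0.232, edgeR).

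Ehf, an ETS factor of epithelia, had 51.8, 55.6 and 44.2 scaled CPM in KPC 8 Gy libraries, against 20.8, 22 and 19.4 in KPC control libraries. It rose by a log2 fold change of 1.28 ± 0.20 (adjusted p = 2.56e-05, edgeR). It was the member of the 7 that also rose in MB49, with 96 counts over the irradiated and 22 over the control libraries. Cdx2, the factor that sets intestinal identity, had 10.3, 10.0 and 11.6 scaled CPM in KPC 8 Gy libraries, against 22.8, 21.7 and 21.1 in KPC control libraries. The groups lay wide apart, yet the log2 fold change of -1.04 ± 0.62 was not called (adjusted p = 0.183, edgeR). In MB49 all 28 Cdx2 counts of the control group were in replicate 3, and without that library the same fold change had an adjusted p of 1.28e-05. Hhex, a factor of early liver and pancreas, gave an adjusted p of 0.0776 with that library and 0.0123 without it, at a log2 fold change of 0.40 in both fits. Gata6 (log2 fold change 0.28 ± 0.23) and Onecut2 (0.10 ± 0.20) were not called (edgeR). Over the whole list of 37 endoderm and pancreas factor genes, of which 17 were tested, 5 rose and 4 fell in KPC 8 Gy against control.

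**Figure D3:**
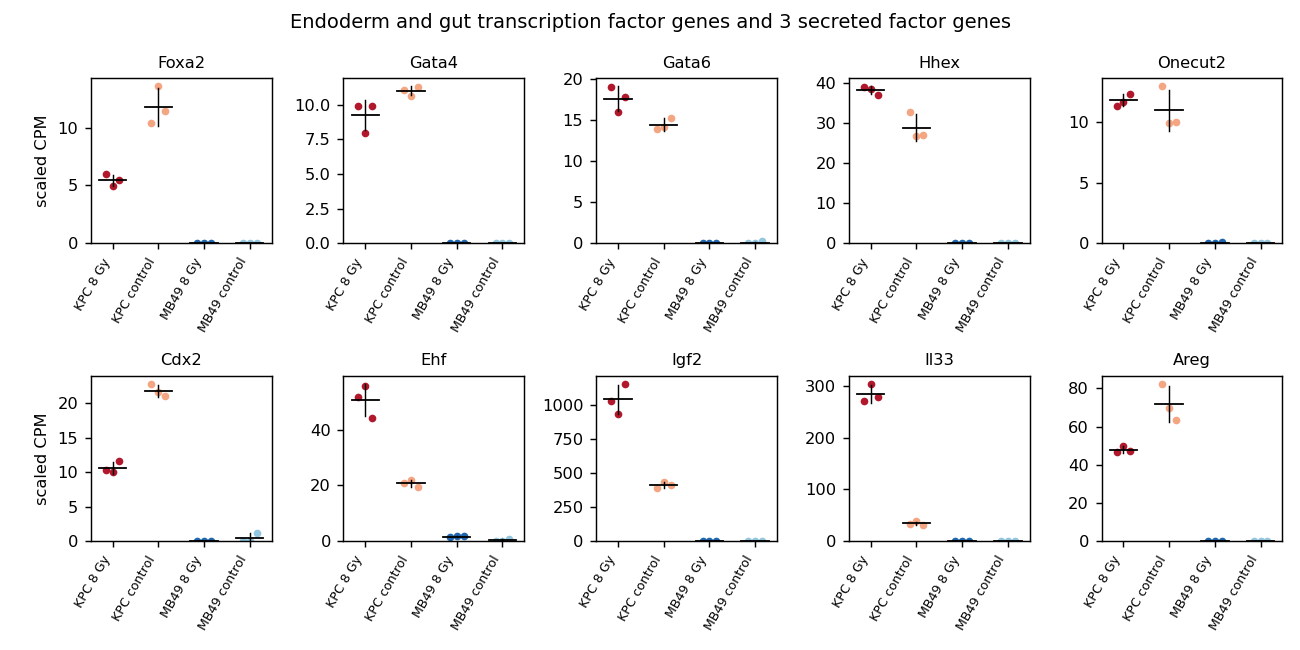
Scaled CPM of 7 endoderm and gut transcription factor genes and of Igf2, Il33 and Areg in each library of the 4 groups, KPC 8 Gy, KPC control, MB49 8 Gy and MB49 control from left to right. Black bars are group means and vertical lines ± 1 SD (n = 3). All 10 genes lie near 0 in both MB49 groups (Ehf at up to 1.86 scaled CPM), Foxa2, Cdx2 and Areg lie lower and Ehf, Igf2 and Il33 higher in KPC 8 Gy than in KPC control libraries.

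Of the 23 other transcription factor genes, 5 rose, 14 fell and 4 were not called in KPC cells (median log2 fold change -0.77). Sox4, a factor of progenitor cells and of tumours, had 29.7, 27.1 and 32.0 scaled CPM in KPC 8 Gy libraries, against 124, 212 and 195 in KPC control libraries (log2 fold change -2.58 ± 0.28, adjusted p = 1.03e-05, edgeR). The groups did not overlap. Falls were also called for Cebpa, a factor of fat and liver cells (-1.72 ± 0.31), Atf3, a stress-response factor (-1.70 ± 0.15), En1 (-1.63 ± 0.16) and Tbx2 (-1.10 ± 0.22), developmental factors. The 5 that rose were Pparg (1.23 ± 0.23), Foxc2 (1.13 ± 0.15), Tead2 (1.12 ± 0.17), Prrx2 (0.67 ± 0.16) and Sp6 (0.61 ± 0.14). Pparg, a nuclear receptor of fat cells that also acts in urothelium, had 1 count over the irradiated and 5 over the control MB49 libraries, although MB49 is labelled a bladder line.

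Only 4 genes were placed under chromatin, and all 4 fell in KPC cells, where 37.7% of all members were called lower. Epop, a partner of Polycomb, fell by 1.74 on the log2 scale, Macroh2a2, a histone variant, by 0.77, Cdyl, a reader of histone marks, by 0.65 and Hdac11, a deacetylase, by 0.43 (edgeR adjusted p between 3.18e-06 and 0.0289).

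Of 7 genes in BMP, Nodal and TGF-beta signalling, 4 fell, 0 rose and 3 were not called in KPC cells. Bmp4, a ligand that patterns gut and mesoderm, had 34.5, 35.1 and 35.3 scaled CPM in KPC 8 Gy libraries, against 81.7, 87.7 and 95.0 in KPC control libraries (log2 fold change -1.33 ± 0.20, adjusted p = 3.89e-05, edgeR). Lefty1, an inhibitor of Nodal, fell by 1.62, and the pathway inhibitors Smad6 and Pmepa1 fell by 0.76 and 0.63 on the log2 scale. Bmp7, another ligand of the family, had 124, 119 and 130 scaled CPM in KPC 8 Gy and 129, 121 and 148 in KPC control libraries, which overlapped and were not called. In MB49, Bmp7 rose to 50 counts over the irradiated libraries, against 3 over the controls (log2 fold change 4.26 ± 0.53, adjusted p = 1.91e-06, edgeR).

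Secreted growth factors, cytokines and matrix proteins moved both ways: of 13, 6 rose, 5 fell and 2 were not called in KPC cells. Il33, an alarmin cytokine held in the nucleus, had 272, 305 and 280 scaled CPM in KPC 8 Gy libraries, against 33.0, 38.0 and 31.6 in KPC control libraries. It rose by a log2 fold change of 3.06 ± 0.15 (adjusted p = 1.23e-10, edgeR), and irradiated MB49 libraries had no Il33 count. Igf2, an imprinted growth factor, had 1030, 936 and 1153 scaled CPM in KPC 8 Gy libraries, against 386, 430 and 410 in KPC control libraries (log2 fold change 1.35 ± 0.21, adjusted p = 4.53e-05, edgeR). Igf2os, annotated on the other strand at Igf2, fell to 1.59, 1.13 and 1.37 scaled CPM in KPC 8 Gy libraries, against 13.0, 13.7 and 13.7 in KPC control libraries. How the counting treated strand is not stated, so reads of these overlapping genes may be shared between them.

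Cxcl16, a chemokine for CXCR6 cells, rose by a log2 fold change of 2.02 ± 0.13, and Prl2c2 rose by 2.47 ± 0.17 in KPC cells (edgeR). Prl2c2 has close copies in its family, so its count is uncertain. Areg, a ligand of the EGF receptor, fell to 46.8, 49.9 and 47.0 scaled CPM in KPC 8 Gy libraries, against 82.3, 69.6 and 63.5 in KPC control libraries (log2 fold change -0.58 ± 0.14, adjusted p = 0.00151, edgeR). Falls over 2.5 on the log2 scale were called for Itih2 (-3.13 ± 0.22), a serum protein that binds hyaluronan, and Stc2 (-2.62 ± 0.18), a secreted glycoprotein of stress responses. Thbs2, a matrix glycoprotein that inhibits vessel growth, rose in KPC cells (1.08 ± 0.22) and had 77 counts over irradiated and 15 over control MB49 libraries.

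Of the 15 genes placed under receptors, guidance and adhesion, 7 fell, 0 rose and 8 were not called in KPC cells. This depends on the placing, which left out the receptor gene Sorl1 (1.16 ± 0.17) and the adhesion gene Mdga1, both called higher. By the deposited term plasma membrane, 17 of 52 members rose and 12 fell in KPC cells. Pdgfrb, a receptor usual in mesenchymal cells, had 53.9, 44.8 and 55.0 scaled CPM in KPC 8 Gy libraries, against 90.7, 101 and 120 in KPC control libraries (log2 fold change -1.02 ± 0.19, adjusted p = 0.000175, edgeR). The list of fibroblast, endothelial and mural markers, which holds Pdgfrb, summed to 110 to 123 CPM in KPC 8 Gy and 185 to 245 CPM in KPC control libraries, with 6 and 8 of its 21 genes at 0, and the part of such cells in the result was not tested. Nrcam and Adgrl2, adhesion proteins known from neurons, fell by 1.35 and 1.23, and Adgrg6 and F2r by 1.07 and 0.69 on the log2 scale. Ptk7, a Wnt pathway receptor, Ephb3, an ephrin receptor, and the ephrin ligand genes Efna3 and Efna4 had log2 fold changes between -0.19 and 0.19 and were not called.

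Genes of epithelial junctions, keratins and surface proteases also moved both ways, with 5 of 13 higher, 3 lower and 5 not called in KPC cells. Misp, a protein that ties actin to the mitotic spindle and to microvilli, had 426, 384 and 439 scaled CPM in KPC 8 Gy libraries, against 12.8, 12.2 and 13.7 in KPC control libraries (log2 fold change 5.01 ± 0.46, adjusted p = 6.35e-06, edgeR). Only Igtp rose more among the 235 members tested in KPC cells. In MB49, Misp had 18, 14 and 18 counts in 8 Gy libraries, against 0, 0 and 27 in control replicates 1, 2 and 3, and was not called. Tns4, a focal adhesion protein, rose by 1.45 ± 0.17, Shroom2 by 1.26 ± 0.19 and Krt7 by 1.01 ± 0.23. Esrp2, a splicing regulator of epithelial cells, fell by 1.21, and Cxadr, a junction protein that coxsackievirus uses to enter cells, by 1.35 on the log2 scale. Cldn2, a claudin of leaky epithelia, had a log2 fold change of 0.62 at an adjusted p of 0.114, and of 0.00193 without MB49 control replicate 3 (edgeR).

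Of 16 genes of lipid and small-molecule metabolism, 7 rose, 3 fell and 6 were not called in KPC cells. The neighbouring desaturase genes rose together: Fads2 had 769, 737 and 827 scaled CPM in KPC 8 Gy libraries, against 215, 194 and 208 in KPC control libraries (log2 fold change 1.92 ± 0.18, adjusted p = 8.02e-08, edgeR). Fads1 had 310, 310 and 328 scaled CPM in KPC 8 Gy libraries, against 133, 128 and 138 in KPC control libraries. Aldoc, an aldolase of glycolysis, rose by 3.32 ± 0.12, the exporter gene Abcc3 by 1.74 ± 0.20 and Isyna1, which makes inositol phosphate, by 1.78 ± 0.16. Prodh, the proline dehydrogenase of mitochondria, fell to 3.47, 3.21 and 2.69 scaled CPM in KPC 8 Gy libraries, against 23.3, 25.7 and 23.7 in KPC control libraries (log2 fold change -2.95 ± 0.22, edgeR). The groups of each of these genes lay apart.

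Among 20 kinase, phosphoinositide and GTPase genes, 9 rose, 6 fell and 5 were not called in KPC cells. Pik3cd, a catalytic subunit of PI3 kinase best known from leukocytes, rose by 1.61 ± 0.16 in KPC cells. The immune cell marker list also summed higher in KPC 8 Gy than in KPC control libraries, with Ptprc at 0 in both (values above), and the part of such cells in the result was not tested. Trib2, a pseudokinase, fell by 3.09, Rem2 by 1.75 and Traf3, an adaptor of innate immune signalling, by 1.68 on the log2 scale. Arl4c, whose promoter is shown above, had 281, 267 and 288 scaled CPM in KPC 8 Gy and 231, 240 and 237 in KPC control libraries. The groups did not overlap, but the log2 fold change of 0.24 ± 0.13 was not called (adjusted p = 0.135, edgeR), and it is smaller than the shift that the scaling can make. Of 12 channel and carrier genes, 2 rose, 6 fell and 4 were not called: Cacna1g, a calcium channel, rose by 2.42 ± 0.20, and Slc22a21, a carnitine transporter, fell by 3.36 on the log2 scale. Outside the groups, Peg13, a noncoding RNA gene expressed from the paternal allele, had 3.27, 2.90 and 4.80 scaled CPM in KPC 8 Gy libraries, against 35.8, 37.9 and 38.6 in KPC control libraries. Phlda3 rose by a log2 fold change of 0.60 ± 0.16 (adjusted p = 0.00361, edgeR), which is 0.22 and not called when libraries are scaled by totals alone.

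**Figure D4:**
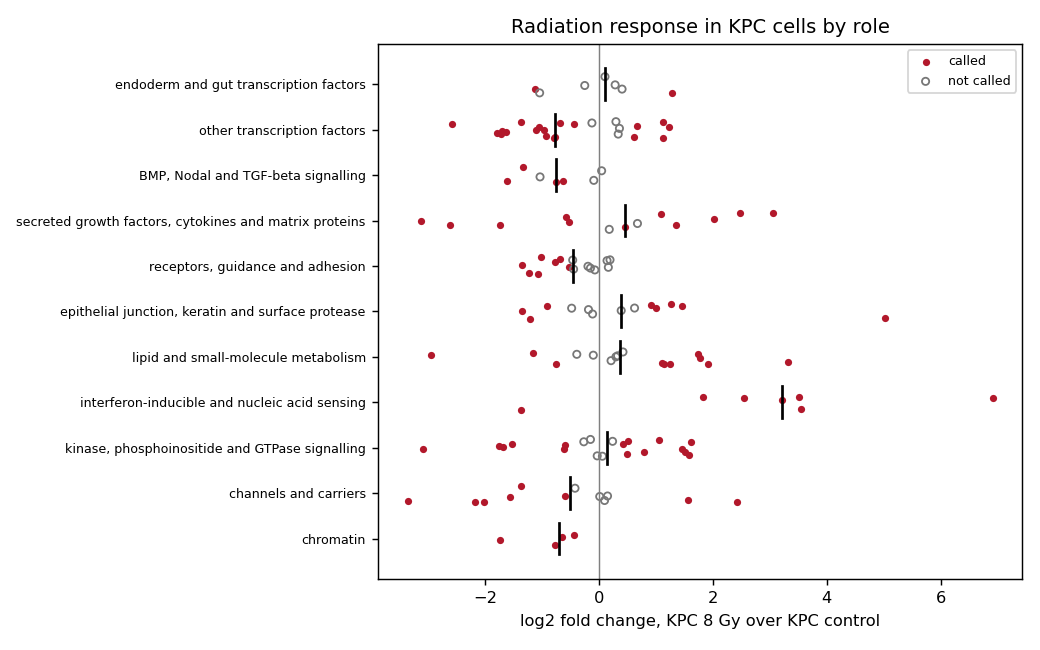
Log2 fold change of KPC 8 Gy over KPC control for the 137 genes in 11 role groups, with filled points called by edgeR, open points not called and black bars at group medians. The interferon-inducible group lies far to the right except for Cgas, the chromatin genes lie left of 0, and the receptor group has no called gene right of 0.

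The interferon-inducible genes had the highest median log2 fold change of the 11 role groups in both lines, 3.22 in KPC and 4.75 in MB49. Of 7 genes placed there, 6 rose and Cgas, which senses DNA in the cytosol, fell in KPC cells, and the same 6 rose in MB49 cells. Without MB49 control replicate 3, all 7 were called higher in MB49 cells, where Cgas had 4 counts over the irradiated libraries and 1 over the control libraries, that 1 in replicate 3. Igtp had 2127, 2132 and 1932 scaled CPM in KPC 8 Gy libraries, against 18.5, 14.3 and 18.3 in KPC control libraries, a log2 fold change of 6.92 ± 0.16 (adjusted p = 2.16e-15, edgeR). In MB49 it had 303, 292 and 302 scaled CPM in 8 Gy libraries, against 0.254, 0.330 and 0.260 in control libraries, a log2 fold change of 10.02 ± 0.20 (adjusted p = 1.43e-15, edgeR). Neither pair of groups overlapped, and irradiated MB49 cells held more Igtp than unirradiated KPC cells.

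Isg15 had 420, 441 and 426 scaled CPM in KPC 8 Gy libraries, against 44.0, 36.3 and 30.1 in KPC control libraries (log2 fold change 3.54 ± 0.15, adjusted p = 2.16e-12, edgeR). In MB49 its levels were 5.06, 7.18 and 6.15 scaled CPM in 8 Gy libraries, against 0.327, 0.293 and 0.303 in control libraries (4.30 ± 0.24, adjusted p = 9.09e-11, edgeR). Irradiated MB49 cells thus lay below unirradiated KPC cells at Isg15, unlike at Igtp. Oas1g had 239, 245 and 280 scaled CPM in KPC 8 Gy libraries, against 32.1, 26.7 and 23.5 in KPC control libraries. In MB49 it had 4.89, 4.96 and 5.08 scaled CPM in 8 Gy libraries, against 0, 0.110 and 0.130 in control libraries. Oas1b, of the same family, Rtp4, a chaperone of surface receptors, and Usp18, the protease that removes Isg15 from proteins, rose in KPC cells by 1.83 ± 0.12, 2.55 ± 0.13 and 3.51 ± 0.15 (edgeR). The Oas1 genes and the interferon-inducible GTPases are families of close copies, so reads may be shared among their members. Over a list of 82 interferon-stimulated genes, of which 76 were tested, 76 rose in KPC and 71 rose and 1 fell in MB49, with median log2 fold changes of 5.46 and 4.84, and 4 genes of this list were in the set.

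**Figure D5:**
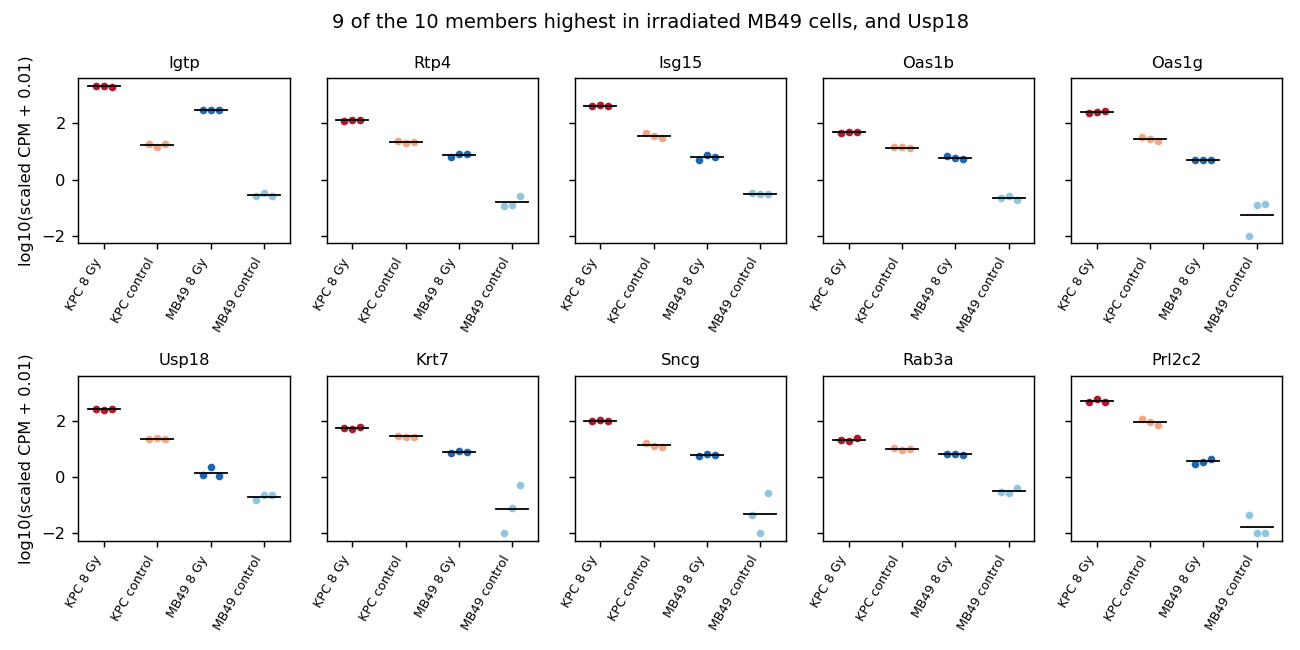
Level in each library, as log10(scaled CPM + 0.01), of 9 of the 10 members with the highest mean in irradiated MB49 cells (mt-Co2 is left out) and of Usp18, in KPC 8 Gy, KPC control, MB49 8 Gy and MB49 control libraries from left to right, with black bars at the mean of the log values. At all 10 genes MB49 8 Gy lies above MB49 control, and only at Igtp does MB49 8 Gy lie above KPC control.

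In MB49 8 Gy against MB49 control libraries, 49 members rose, 22 fell and 165 were not called, where 35.3% of all tested genes were called higher and 31.6% lower. As the MB49 controls entered the rule, each gene started near 0 there. Without MB49 control replicate 3, 62 members rose and 11 fell. The count of falls rests on very few reads and moved between 11 and 55 when single libraries were left out, and in a fit of the 6 MB49 libraries alone 33 members rose and 0 fell. The falls are therefore not described gene by gene.

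The rises in MB49 covered more than interferon genes. Krt7 had 7.25, 8.24 and 8.06 scaled CPM in MB49 8 Gy libraries, against 0, 0.0733 and 0.520 in MB49 control libraries (log2 fold change 5.40 ± 0.41, adjusted p = 1.33e-08, edgeR). The groups did not overlap, and the level stayed below the 26.9 to 29.9 scaled CPM of unirradiated KPC cells. Sncg, gamma-synuclein, had 5.75, 6.55 and 6.15 scaled CPM in MB49 8 Gy libraries, against 0.0363, 0 and 0.260 in MB49 control libraries (6.01 ± 0.37, adjusted p = 2.92e-10, edgeR). It also rose in KPC cells, to 103, 106 and 96.6 scaled CPM in 8 Gy libraries, against 16.2, 13.2 and 12.01 in control libraries.

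Rab3a had 6.96, 6.46 and 6.15 scaled CPM in MB49 8 Gy libraries, against 0.290, 0.256 and 0.390 in MB49 control libraries (log2 fold change 4.38 ± 0.22, edgeR). Prl2c2 had 223 counts over irradiated MB49 libraries and 1 over the MB49 controls. Celsr2, a cadherin of planar polarity, had 172 counts over irradiated and 7 over control MB49 libraries, and rose by 4.92 ± 0.48 on the log2 scale. In KPC cells Celsr2 had 47.1, 37.9 and 49.5 scaled CPM in 8 Gy and 41.0, 60.9 and 83.2 in control libraries, which overlapped and were not called.

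The rises in the 2 lines overlapped in part. Of the 49 members that rose in MB49 cells, 24 also rose in KPC cells, which is 49.0% of the MB49 rises and 33.8% of the 71 KPC rises. Among all other tested genes, 57.4% of the MB49 rises also rose in KPC cells and 65.2% of the KPC rises also rose in MB49 cells. The members were chosen near 0 in MB49 controls, and 81 had no read in irradiated MB49 libraries, where a rise could not be called. The other genes had no such limit, so no lesser overlap of the responses is read from these shares. The 24 included Igtp, Isg15, Usp18, Oas1g, Oas1b and Rtp4, with Krt7, Ehf, Sncg, Rab3a, Prl2c2, Thbs2, Pik3cd and Phlda3. A further 9 rose in MB49 and fell in KPC cells, Esrp2, Spint1, Pear1, Smad6, Masp1, Nptx1, Wnk4, Prr5 and Ninl. The other 16, with mt-Co2 among them, were not called in KPC cells. Esrp2 had 1.67, 1.49 and 1.17 scaled CPM in MB49 8 Gy libraries, against 0.145, 0.293 and 0.520 in MB49 control libraries. In KPC cells Esrp2 had 8.68, 7.85 and 10.8 scaled CPM in 8 Gy libraries, against 18.3, 20.2 and 24.3 in control libraries. Spint1, an inhibitor of surface proteases that acts on matriptase, had 30.3, 29.2 and 32.1 scaled CPM in KPC 8 Gy libraries, against 55.3, 59.0 and 57.0 in KPC control libraries, and 39 counts over irradiated against 21 over control MB49 libraries. The MB49 levels of Spint1 overlapped, at 0.748, 0.482 and 0.746 scaled CPM in 8 Gy and 0.145, 0.0733 and 0.650 in control libraries. The MB49 rise of Nptx1 rested on 7 counts over irradiated and 0 over control libraries.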

How the data were processed

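The authors deposited a single table of estimated counts per gene for 12 libraries, with no scaling between them; per library, 6.2 to 8.7% of the values held a fraction. Per the labels' protocols, TRIzol RNA went into a stranded Illumina mRNA kit. The submitters' processing notes name fastp, HISAT2, StringTie and build GRCm39; neither the counting tool nor its strand setting is given there. The annotation used was of build GRCm38.p6, so promoter windows are given in that build, and no other coordinates are.

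Membership and the limits of 10 and 0.5 CPM used counts over column totals. Of the rows, 525 had no symbol. For tests, counts were rounded, genes with low counts removed by filterByExpr (42818 of 57180 rows), and libraries scaled by TMM factors of 0.829 to 1.18. edgeR's quasi-likelihood model was fitted robustly to all 12 libraries with 1 coefficient per group (8 residual degrees of freedom, common biological coefficient of variation 0.150). Tests were 2-sided. Standard errors are approximate, taken from the fold change and the F statistic. The steps were tested on simulated data. Tools were R 4.3.3, edgeR 4.0.16, limma 3.58.1, DESeq2 1.42.0, pandas 2.3.3 and matplotlib 3.10.9.

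The members, the 18 lists of genes and the naming rule were chosen with earlier results of these data known, and the role groups and the 5 promoters after values had been seen. The naming rule took the 12 members highest per kb in KPC controls, the 10 largest rises and 10 largest falls in KPC cells without overlap, the 10 highest in MB49 8 Gy, members on a list, and those nearest the limits. Other members are named from the role groups. Promoter windows matched 170 members (72.0%), too few for shares over the set. Motifs of other factor families were also searched and are not reported. Replicate numbers did not pair the libraries, so no block entered the model. A result at 1 member is not reported here. The planned share over other tested genes under 0.5 CPM in MB49 controls is not given, because the filter on low counts admits some of them only through the irradiated MB49 libraries.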

Additional observations from a re-analysis of the deposited data

Results flagged for a closer look

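The change after 8 Gy differed between KPC and MB49 cells at 23 of the 26 members with at least 1 CPM in irradiated MB49 libraries, by edgeR's test of the difference itself (adjusted p under 0.05). All 23 differences, KPC minus MB49 on the log2 scale, were negative. Their sign is fixed in part by the choice, because these genes were under 0.5 CPM in MB49 controls and at least 1 CPM after irradiation, so that a large rise in MB49 was required. Of all tested genes, 22.0% were called in this direction and 20.9% in the other. Without MB49 control replicate 3, 22 of the 26 were called negative and 0 positive. No part of these differences is read as a weaker response of KPC cells.

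Values are given for 22 of the 23. The difference was -5.38 for Celsr2, -5.2 for Prl2c2, -4.39 for Krt7 and -4.34 for Obsl1. It was -3.64 for Ttc9, -3.39 for Esrp2, -3.32 for Rab3a, -3.13 for Sncg and -3.1 for Igtp. Rtp4 (-2.99), Rasl11a (-2.97), Oas1b (-2.92), Pear1 (-2.74), Oas1g (-2.7), Smim1 (-2.44), Arhgef17 (-2.27), Ptk7 (-2.25) and Car12 (-2.2) followed. The smallest were -1.68 for Phlda3, -1.62 for Thbs2, -1.18 for Ehf and -1.08 for Pik3cd. Esrp2 and Pear1 moved in opposite directions in the 2 lines, while Igtp, Oas1g, Oas1b and Rtp4 rose in both.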

How the results depend on the processing

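The 234 members higher in irradiated KPC than in irradiated MB49 cells were the same 234 under every alternative fit. Leaving out KPC 8 Gy replicate 2 called 1 member lower (between 0 and 1 over the libraries left out). In KPC 8 Gy against control, counts of rises and falls stayed within 1.5 times under each alternative fit; scaling by totals gave 54 rises and 114 falls. Of the alternatives for named genes, 2192 kept direction and call, 36 gained a call, 22 lost it and 0 reversed.

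The 22 falls in MB49 were the unstable count. They became 55 with a replicate block within each line, 40 with DESeq2, 55 with no filter on low counts and 0 in the 6 libraries alone, which test fewer low genes, and 11 to 55 when each library was left out. Replicate numbers did not pair the libraries: same-numbered deviations correlated at -0.178 to 0.171.

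Limits of 20 and 0.25 CPM left 115 members, with 36 rises and 45 falls in KPC, 21 and 11 in MB49, 113 higher in irradiated KPC and 9 negative differences of response. Limits of 5 and 1 CPM gave 411 members, with 141 and 140, 114 and 37, 401 higher and 1 lower, and 62 negative and 2 positive differences. With TMM-scaled CPM the rule gave 233 members, 185 of them kept in KPC 8 Gy. With every library past the limits it gave 184, of which 127 were kept. Reads in single digits over a group cannot set a level in MB49.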
